A study of Mus musculus with 32 samples.

Results

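The genes described here encode subunits of the NMDA and kainate receptors, which are ionotropic glutamate receptors. They are 10 genes taken by name from the 49671 genes of the count table: Grin1, Grin2a, Grin2b, Grin2c, Grin2d and Grin3a for NMDA receptors, and Grik1, Grik2, Grik3 and Grik5 for kainate receptors. Their expression was measured by RNA-seq in primary cortical neurons of wild-type C57BL/6 mice, prepared from embryonic forebrain and kept in Neurobasal medium with B27 supplement. Cultures were left untreated or were exposed for 6 h or 5 d to 1 of 3 synthetic oligoribonucleotides at the same concentration. One carried the sequence of miR-124-5p, another that of miR-92a-1-5p. Mut.oligo, the third, is a mutated microRNA sequence that served as the control oligoribonucleotide. The design asked whether extracellular microRNAs that can act on Toll-like receptors change neuronal gene expression early and late after exposure. Each of the 8 groups held 4 libraries, so that 32 libraries were compared. No gene in these libraries reports which oligoribonucleotide a culture received, and the treated groups are therefore called by their labels. Whether the names miR-124-5p and Mut.oligo could have been exchanged was not tested here, and an exchange would change the meaning of each value given for these 2 groups.

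NMDA receptors are tetramers built around the obligatory glycine-binding GluN1 subunit, with glutamate-binding GluN2 subunits that set channel kinetics and, in some cells, glycine-binding GluN3 subunits. GluN2B and GluN2D are the embryonic forms in the forebrain, and GluN2A is added as cortical circuits mature after birth, a change known as the GluN2B to GluN2A switch. Kainate receptors are tetramers of the primary subunits GluK1, GluK2 and GluK3, which can form channels alone, with the high-affinity subunits GluK4 and GluK5, which need a primary subunit as a partner.

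The 10 genes are placed here by GRCm38 coordinates and GENCODE M21, with the length of their merged exons. The NMDA receptor genes are Grin1 (chr2:25291181-25319187, minus strand, 9700 bases of exon), Grin2a (chr16:9567898-9995560, minus strand, 17933 bases of exon), Grin2b (chr6:135713233-136173511, minus strand, 24842 bases of exon), Grin2c (chr11:115249169-115267243, minus strand, 5037 bases of exon), Grin2d (chr7:45831883-45878378, minus strand, 6658 bases of exon) and Grin3a (chr4:49661611-49845744, minus strand, 12275 bases of exon). The kainate receptor genes are Grik1 (chr16:87895900-88290265, minus strand, 6721 bases of exon), Grik2 (chr10:49094833-49788766, minus strand, 13246 bases of exon), Grik3 (chr4:125490700-125714173, plus strand, 8973 bases of exon) and Grik5 (chr7:25009849-25072346, minus strand, 5168 bases of exon). Counts cover all annotated exons of a gene, UTRs included, and the exons of 0 of the 10 members overlapped another gene on the same strand, the strand that was counted.

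The libraries held 24514090 to 73626029 counts, and 3 counts corresponded to 0.0402 to 0.118 CPM, the read counts scaled to the effective library size. Each library carries an experiment batch in its label. The 6 h libraries came from 7 batches and the 5 d libraries from 6 others, with 0 batches in both, so time in culture and batch cannot be told apart. Within a time point, the untreated libraries shared batches with 4 libraries labelled miR-92a-1-5p, 2 labelled miR-124-5p and 2 labelled Mut.oligo at 6 h, and with 2, 2 and 3 at 5 d. Summed CPM of 6 neuronal markers was 6148 to 6881 in untreated libraries at 6 h and 5029 to 7515 at 5 d. Markers of other cells moved with time: summed CPM of 8 astrocyte markers was 448 to 733 at 6 h and 1763 to 2943 at 5 d, with 8 of 8 genes past the test upward, and summed CPM of 6 markers of dividing cells was 190 to 308 and 74.9 to 83.6, with 6 of 6 downward. Microglial markers summed to 8.48 to 17.2 CPM at 6 h and 11.8 to 21.5 CPM at 5 d. In such bulk samples, fewer cells of a type and less RNA per cell cannot be told apart.

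Of the 3 oligoribonucleotides, the mouse reference set used here holds miR-92a-1-5p (RefSeq, GRCm38.p6, chr14:115044437-115044459, plus strand). It is shown with the seed, bases 2 to 8, in capitals, followed by 6 places in the longest annotated 3' UTRs of the members where the complement of the seed occurs, in capitals, with the bases around it.
mmu-miR-92a-1-5p: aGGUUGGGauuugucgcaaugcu
Grik3, chr4:125709180-125709208, plus strand: ttctgggtacgCCCAACCtaatgagcccc
Grik3, chr4:125711386-125711414, plus strand: tgaaaacctgtCCCAACCccctaaggggt
Grin1, chr2:25291326-25291354, minus strand: ggtgtcactcaCCCAACCttgtacatgac
Grin2b, chr6:135715167-135715195, minus strand: ctttgcttctgCCCAACCctggcaagtga
Grin2a, chr16:9574974-9575002, minus strand: cctgtgttagaCCCAACCtctgagttctt
Grik5, chr7:25010077-25010105, minus strand: gcggggaggacCCCAACCtgggactgccc

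In the longest annotated 3' UTR of each gene (GENCODE M21), Grin2a and Grik3 held 2 such matches each and Grin1, Grin2b and Grik5 held 1 each. Grin2c, Grin2d, Grin3a, Grik1 and Grik2 held 0. A match was present in 9.01% of the 3' UTRs of 21022 genes and in 14.6% of the 10236 that were at least 1000 bases long. The 3' UTR of Grin2b had 18865 bases, that of Grin2a 9929 and that of Grik3 6082. Matches of 7 bases are a description of the sequence and not of binding.

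All 10 members were detected in each of the 32 libraries, from 12 to 61 counts for Grin2c at 6 h up to 32545 to 90156 counts for Grin2b at 5 d. Levels of different genes were compared as CPM per kilobase of merged exon sequence. The order depends on this length, which was 9700 bases for Grin1 against 4276 in its longest transcript. For Grik3 both were 8973 bases. An order by longest transcript was not computed. In untreated neurons at 6 h the order began with Grik5 at 36.8 ± 1.74 CPM per kb (SD, n = 4), which encodes GluK5, then Grin2b at 24.5 ± 4.28 (SD, n = 4) and Grik3 at 15.2 ± 3.05 (SD, n = 4). The libraries of Grin2b and Grik3 overlapped, while Grik5 stood above Grin2b in every library. Grin1 followed at 8.60 ± 0.589 CPM per kb (SD, n = 4), apart from its neighbours on both sides.

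Below these lay Grin3a at 5.00 ± 1.00 CPM per kb (SD, n = 4), Grik1 at 4.42 ± 0.399 (SD, n = 4) and Grik2 at 4.02 ± 0.545 (SD, n = 4), whose ranges overlapped from neighbour to neighbour. Grin2d at 1.80 ± 0.414 CPM per kb (SD, n = 4) and Grin2a at 1.30 ± 0.167 (SD, n = 4) overlapped as well, and Grin2c was lowest of the members at 0.191 ± 0.0575 CPM per kb (SD, n = 4). At 5 d Grin2b came first at 44.4 ± 13.5 CPM per kb (SD, n = 4), with a range that overlapped Grik5 at 31.7 ± 2.28 (SD, n = 4). By merged exon length, Grin1 at 19.5 ± 1.64 CPM per kb (SD, n = 4) now lay above Grik3 at 16.1 ± 0.609 (SD, n = 4) without overlap. The order of Grin2d, Grin2a and Grin2c at the lower end was the same at both times.

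**Figure D1:**
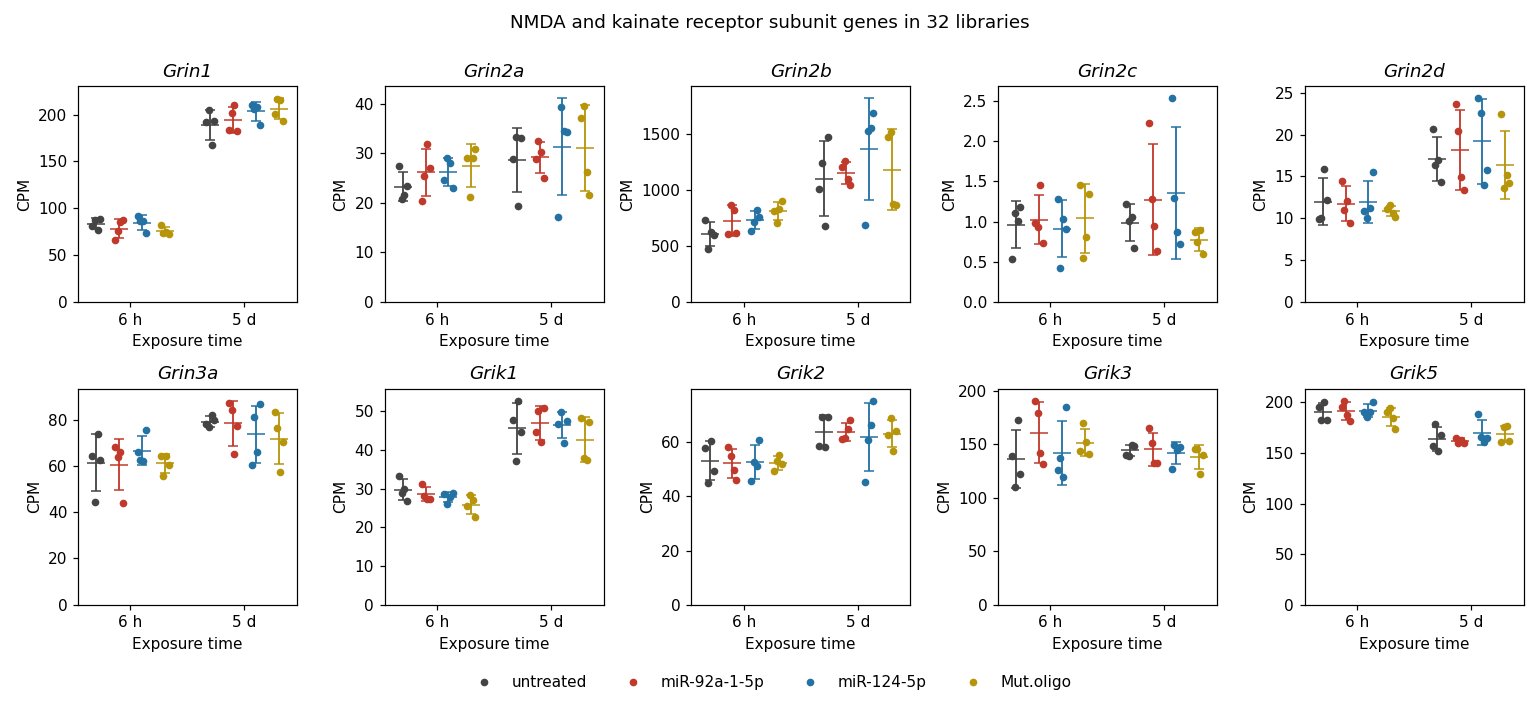
CPM (vertical axis, linear from 0) of each of the 10 members in every library, by condition (colour) and exposure time (horizontal axis); points are libraries and the bars show the mean ± SD of 4 libraries. Grin1 and Grik1 lie higher at 5 d than at 6 h in all 4 conditions, and the colours within a time point overlap for every member.

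Between 6 h and 5 d in untreated neurons, 4 of the 10 members rose and 0 fell at an adjusted p under 0.05 with a log2 fold change beyond 0.5 (edgeR quasi-likelihood test, Benjamini-Hochberg over 20425 genes). The 4 were Grin1, Grin2b, Grin2d and Grik1. Over all genes tested, 19.1% passed upward and 14.3% downward, which is the background to read these counts against. At adjusted p alone 6 members were higher and 1 was lower, with 27.8% of all genes higher and 26.9% lower. The median log2 fold change was 0.33 over the members and 0.04 over all genes. The same 4 members rose, and 0 fell, in the libraries labelled miR-92a-1-5p (all genes, 18.3% up and 15.7% down), miR-124-5p (19.5% and 14.7%) and Mut.oligo (18.7% and 15.4%). These 4 comparisons share no library. Values of the treated groups are given below in this order.

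Grin1, which encodes the obligatory GluN1 subunit, was at 81.2, 87.6, 76.4 and 88.6 CPM in the 4 untreated libraries at 6 h. At 5 d the values were 192, 205, 167 and 193 CPM. Every 5 d library lay above every 6 h library, and the groups were far from overlapping. Grin1 rose by a log2 fold change of 1.18 ± 0.0808 (SE), or 2.27-fold, with an edgeR adjusted p of 3.68e-13. In the treated groups the log2 fold change was 1.31 ± 0.0809 (SE) for miR-92a-1-5p, 1.27 ± 0.0809 (SE) for miR-124-5p and 1.44 ± 0.0814 (SE) for Mut.oligo, again without overlap. Of the members, Grin1 changed most with time in each condition. The means of the treated groups, in the same order, were 78.3 ± 9.84, 84.7 ± 7.92 and 75.8 ± 4.14 CPM (SD, n = 4) at 6 h and 195 ± 13.7, 204 ± 10.1 and 206 ± 11.3 CPM (SD, n = 4) at 5 d.

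Grin2b, the gene of the embryonic GluN2B subunit, was at 730, 472, 630 and 603 CPM in untreated neurons at 6 h and at 1015, 1242, 684 and 1472 CPM at 5 d. Library 3 at 5 d lay inside the 6 h range, so the groups overlapped. Grin2b rose by a log2 fold change of 0.86 ± 0.222 (SE), with an adjusted p of 0.00164. The change was 0.66 ± 0.222 (SE) for miR-92a-1-5p, where the groups did not overlap, 0.90 ± 0.222 (SE) for miR-124-5p and 0.54 ± 0.221 (SE) for Mut.oligo, where they did. Grin2b averaged 727 ± 137, 732 ± 80.4 and 816 ± 80.7 CPM (SD, n = 4) at 6 h in the treated groups, and 1152 ± 98.9, 1365 ± 457 and 1183 ± 363 CPM (SD, n = 4) at 5 d. The adjusted p for the libraries labelled Mut.oligo was 0.0414, and that call was lost with RLE normalization (adjusted p = 0.0501) and when any of 5 single libraries was left out (Mut.oligo replicates 1, 2 and 3 at 6 h, 1 and 2 at 5 d), with adjusted p from 0.0598 to 0.148.

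Grin2a, the gene of the GluN2A subunit of mature cortex, was at 27.5, 20.8, 21.5 and 23.3 CPM at 6 h. The 5 d values were 28.8, 33.3, 19.3 and 33.0 CPM. Library 3 at 5 d lay below the 6 h range and the other libraries at 5 d lay above it. The log2 fold change of 0.30 ± 0.201 (SE) did not pass (adjusted p = 0.214), nor did those of 0.16, 0.26 and 0.18 in the treated groups. Their mean levels were 26.1 ± 4.76, 26.1 ± 2.81 and 27.5 ± 4.33 CPM (SD, n = 4) at 6 h and 29.1 ± 3.12, 31.3 ± 9.73 and 31.1 ± 8.58 CPM (SD, n = 4) at 5 d. In the libraries labelled miR-124-5p, the value without replicate 1 of 5 d was 0.47, with an adjusted p of 0.0287.

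Grin2d, which encodes the slowly deactivating GluN2D subunit, was at 9.97, 10.04, 15.9 and 12.2 CPM at 6 h and at 20.7, 16.4, 17.0 and 14.4 CPM at 5 d. The 2 groups overlapped through 1 library on either side. The log2 fold change of 0.51 ± 0.196 (SE) passed narrowly, at an adjusted p of 0.0287. Leaving out untreated replicate 1 or 2 of 6 h or replicate 1 of 5 d brought it to between 0.43 and 0.47, with adjusted p from 0.0626 to 0.0908, and the call was lost. It was also lost with the replicate block, at 0.48, and in a fit of only the 2 groups, at 0.49. Grin2d in the treated groups was at 11.8 ± 2.07, 11.9 ± 2.47 and 10.8 ± 0.601 CPM (SD, n = 4) at 6 h on average, and at 18.1 ± 4.78, 19.2 ± 5.05 and 16.4 ± 4.09 CPM (SD, n = 4) at 5 d. In the treated groups the change was 0.63, 0.68 and 0.59, and without replicate 1 of 5 d it fell below 0.5 for miR-92a-1-5p (0.47) and for Mut.oligo (0.40).

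Grin2c, the gene of GluN2C, had 16, 35, 33 and 45 counts in untreated libraries at 6 h and 73, 48, 58 and 40 at 5 d. In CPM these were 0.541 to 1.19 and 0.667 to 1.22, and the 2 groups overlapped almost entirely. Treated groups averaged 1.03 ± 0.307, 0.914 ± 0.359 and 1.04 ± 0.432 CPM (SD, n = 4) at 6 h and 1.27 ± 0.692, 1.36 ± 0.822 and 0.778 ± 0.138 CPM (SD, n = 4) at 5 d. The log2 fold change was 0.03 ± 0.384 (SE), with an adjusted p of 0.958, and the sign varied between conditions.

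Grin3a, which encodes the glycine-binding GluN3A subunit, was at 64.3, 44.5, 73.9 and 62.6 CPM at 6 h. At 5 d it was at 78.0, 77.0, 82.0 and 79.7 CPM. Each 5 d library was above each 6 h library, although the log2 fold change of 0.37 ± 0.136 (SE) stayed under the fold limit (adjusted p = 0.0224). Of all genes tested, 23.6% had all untreated 5 d libraries above all 6 h libraries and 24.3% had them below. Without untreated replicate 3 of 6 h, Grin3a reached 0.50 and passed. In each treated condition its groups overlapped, and the log2 fold change was 0.38 (adjusted p = 0.0199), 0.15 (adjusted p = 0.376) and 0.23 (adjusted p = 0.149). In the treated groups it averaged 60.5 ± 11, 66.6 ± 6.33 and 61.1 ± 4.06 CPM (SD, n = 4) at 6 h and 78.4 ± 9.77, 73.7 ± 12.4 and 71.8 ± 11 CPM (SD, n = 4) at 5 d.

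Of the primary kainate subunits, Grik1 (GluK1) was at 33.3, 28.9, 29.8 and 26.9 CPM in untreated neurons at 6 h and at 47.6, 37.1, 52.7 and 44.7 CPM at 5 d. Treated means were 28.5 ± 1.85, 27.8 ± 1.25 and 25.9 ± 2.35 CPM (SD, n = 4) at 6 h and 46.9 ± 4.37, 46.4 ± 3.38 and 42.7 ± 5.79 CPM (SD, n = 4) at 5 d. The groups did not overlap in untreated neurons. Grik1 rose by a log2 fold change of 0.62 ± 0.0963 (SE), with an adjusted p of 3.16e-06, and by 0.72, 0.74 and 0.72 in the treated groups, without overlap in any of them.

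Grik2 (GluK2) was at 57.8, 45.1, 60.6 and 49.3 CPM at 6 h and at 58.8, 69.3, 58.4 and 69.5 CPM at 5 d. The groups overlapped, and the log2 fold change of 0.27 ± 0.112 (SE) had an adjusted p of 0.0441 without reaching the fold limit. With treatment it was 0.29 (adjusted p = 0.0271), 0.24 (adjusted p = 0.0748) and 0.27 (adjusted p = 0.0427). Grik2 in the treated groups averaged 52.2 ± 5.43, 52.7 ± 6.24 and 52.5 ± 2.54 CPM (SD, n = 4) at 6 h and 63.9 ± 3.25, 62.1 ± 12.6 and 63.2 ± 5.03 CPM (SD, n = 4) at 5 d. Grik3 (GluK3) was at 139, 110, 173 and 123 CPM and then at 140, 140, 150 and 148 CPM. The 5 d libraries of Grik3 lay close together, inside the wide range of the 6 h libraries. Its log2 fold change was 0.08 ± 0.127 (SE), with an adjusted p of 0.611, and -0.15, 0.001 and -0.13 with treatment (adjusted p from 0.335 to 0.994). The treated means of Grik3 were 161 ± 28.5, 142 ± 29.7 and 152 ± 12.9 CPM (SD, n = 4) at 6 h and 145 ± 15.8, 142 ± 10.4 and 138 ± 11.1 CPM (SD, n = 4) at 5 d.

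Grik5, which encodes the high-affinity subunit GluK5, was at 195, 182, 200 and 183 CPM at 6 h. At 5 d it was at 157, 179, 152 and 168 CPM. All 5 d libraries were below all 6 h libraries, by a small amount. The log2 fold change of -0.22 ± 0.0565 (SE) had an adjusted p of 0.00178 and did not reach the fold limit. Mean Grik5 levels with treatment were 192 ± 8.84, 192 ± 6.48 and 186 ± 8.79 CPM (SD, n = 4) at 6 h and 162 ± 2.49, 170 ± 12.4 and 169 ± 8.13 CPM (SD, n = 4) at 5 d. In the treated groups the log2 fold change was -0.24 (adjusted p = 0.000546), -0.17 (adjusted p = 0.00981) and -0.14 (adjusted p = 0.0375). Grik5 was the only member whose value was negative and past an adjusted p of 0.05, and this held in each of the 4 conditions.

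**Figure D2:**
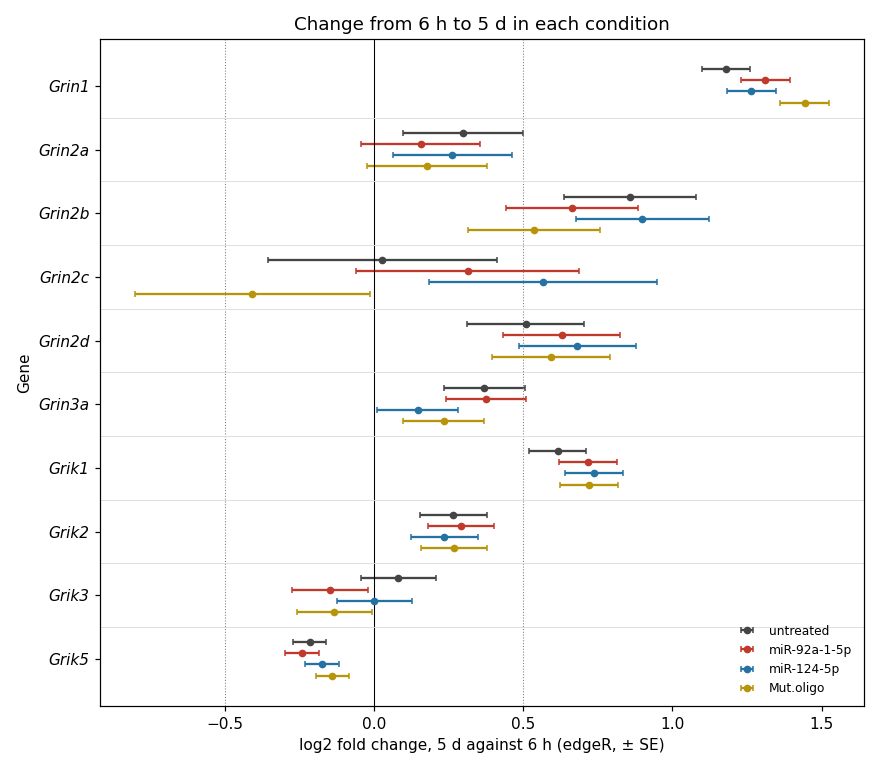
Log2 fold change of 5 d against 6 h (horizontal axis) for each member (vertical axis) in the 4 conditions (colour), from the edgeR fit of all 32 libraries; bars are ± SE and dotted lines mark the fold limit of 0.5 in either direction. Grin1 lies at 1.18 to 1.44, Grik1 at 0.62 to 0.74 and Grik5 at -0.24 to -0.14 in the 4 conditions, while the bars of Grin2c are the widest.

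The 300 bases around the annotated start (250 before, 50 after; RefSeq, GRCm38.p6) are shown for Grin1 and Grik5, the member with the largest rise and the member that was lower at 5 d. Capitals mark GGGCGG and CACGTG on either strand.
Grin1, chr2:25319138-25319437, minus strand: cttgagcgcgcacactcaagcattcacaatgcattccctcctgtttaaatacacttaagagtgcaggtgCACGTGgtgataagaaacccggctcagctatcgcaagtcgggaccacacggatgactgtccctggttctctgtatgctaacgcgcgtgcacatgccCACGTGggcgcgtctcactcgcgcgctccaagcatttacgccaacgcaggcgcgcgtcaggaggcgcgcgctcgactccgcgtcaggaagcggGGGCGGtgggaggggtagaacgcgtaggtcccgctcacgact
Grik5, chr7:25072320-25072619, minus strand: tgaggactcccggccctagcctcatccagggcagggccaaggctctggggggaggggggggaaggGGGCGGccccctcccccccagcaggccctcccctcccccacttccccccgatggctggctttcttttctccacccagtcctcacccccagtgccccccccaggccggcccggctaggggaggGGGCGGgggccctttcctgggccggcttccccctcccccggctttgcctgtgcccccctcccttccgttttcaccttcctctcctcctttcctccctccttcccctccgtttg

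The GC content of the 6 member promoters in this set was 60.7% for Grin1, 70% for Grin2c, 56% for Grin2d, 64.7% for Grik2, 82% for Grik3 and 72% for Grik5, and the median over 32851 promoters was 52.7%. GGGCGG, the letters of a GC box, occurred once in Grin1, 2 times in Grik5, 3 times in Grin2c and 7 times in Grik3, and in 35.7% of all promoters. CACGTG, an E-box, occurred 2 times in Grin1 and in 0 of the other 5, and in 7.15% of all promoters. TGACGTCA, a cyclic AMP response element, occurred in 0 of the 6 and in 1.79% of all promoters. These counts describe letters in a window and not factor binding.

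The ratio of Grin2a to Grin2b had a lower mean at 5 d than at 6 h in all 4 conditions, and the difference passed in 3 of them. It was computed within each library from counts per kilobase, so that it needs no scaling between libraries. In untreated neurons the log2 ratio was -4.26, -4.03, -4.41 and -4.22 at 6 h. At 5 d it was -4.67, -4.75, -4.67 and -5.01. Each 5 d library was below each 6 h library. The geometric mean corresponded to 18.8 Grin2b per Grin2a at 6 h and 27.4 at 5 d, and the mean log2 ratio fell by 0.54, beyond the SD between libraries of 0.153 and 0.16 (exact two-sided permutation test of 4 against 4 libraries, p = 0.0286, the smallest this design allows; adjusted p = 0.0381 over 4 conditions).

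The ratio fell by 0.51 in the libraries labelled miR-92a-1-5p and by 0.62 in those labelled miR-124-5p, without overlap and with the same exact p of 0.0286 and adjusted p of 0.0381. For Mut.oligo the difference was -0.34. There 1 library at 5 d overlapped 1 at 6 h, and the exact permutation test gave p = 0.0571 (adjusted p = 0.0571). Whether the fall differed between conditions was not tested. Grin2b passed upward in these comparisons and Grin2a did not pass in any. The size of the fall does not depend on the gene lengths, which cancel. The level does: with the longest transcript in place of the merged exons it was 15.8 and 23.1 Grin2b per Grin2a in untreated neurons.

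As shares of the 4 GluN2 genes per kilobase, untreated neurons had 88.0% ± 1.63 Grin2b, 6.57% ± 1.47 Grin2d, 4.71% ± 0.486 Grin2a and 0.720% ± 0.291 Grin2c at 6 h (SD, n = 4). At 5 d the shares were 90.5% ± 2.55, 5.70% ± 2.13, 3.31% ± 0.278 and 0.444% ± 0.201 (SD, n = 4). The Grin2a share was 4.11% to 5.30% at 6 h and 2.90% to 3.51% at 5 d, so that it did not overlap, while those of the other 3 genes did.

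The ratio of Grin1 to the summed GluN2 genes did not pass in any condition. In untreated neurons the mean log2 ratio was -1.68 ± 0.311 (SD, n = 4) at 6 h and -1.28 ± 0.337 (SD, n = 4) at 5 d, with overlap. This level depends on the gene lengths. As a geometric mean, the ratio was 0.312 at 6 h and 0.412 at 5 d by merged exons. By longest transcript it was 0.672 and 0.89. The difference was 0.40 for untreated (exact permutation p = 0.171), 0.67 for miR-92a-1-5p (p = 0.0286), 0.47 for miR-124-5p (p = 0.2) and 0.97 for Mut.oligo (p = 0.0286). The adjusted p was 0.0571 for the 2 smallest and 0.2 for the others. Only 2 conditions at the smallest p the design allows cannot pass the adjustment over 4. For miR-124-5p, the difference without replicate 1 of 5 d, whose Grin2b was low, was 0.18.

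Among kainate subunits, the ratio of the high-affinity genes Grik4 and Grik5 to the primary genes Grik1, Grik2 and Grik3 had a lower mean at 5 d in each condition. In untreated neurons the log2 ratio was 0.75 ± 0.173 (SD, n = 4) at 6 h and 0.33 ± 0.156 (SD, n = 4) at 5 d, without overlap (exact permutation p = 0.0286). After adjustment over the 4 conditions it did not pass (0.0762), and the differences in the treated groups were -0.31, -0.35 and -0.21. A single condition at the smallest p the design allows cannot pass this adjustment. Of the summed kainate genes per kilobase, Grik5 made up 58.7% ± 2.09 at 6 h and 50.7% ± 2.30 at 5 d, and Grik1 7.05% ± 0.593 and 10.9% ± 1.82 (SD, n = 4).

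**Figure D3:**
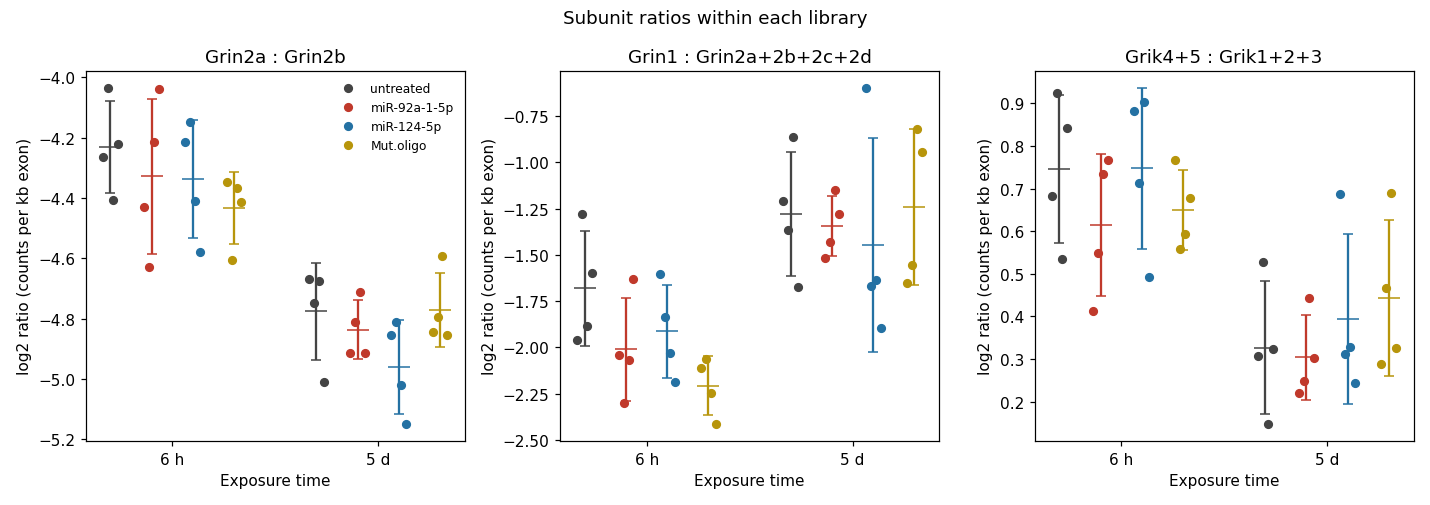
Log2 ratio of counts per kilobase of merged exon sequence (vertical axes) within each library, by condition (colour) and exposure time (horizontal axis), for Grin2a to Grin2b, Grin1 to the 4 GluN2 genes, and Grik4 and Grik5 to Grik1, Grik2 and Grik3. Points are libraries and bars are the mean ± SD of 4; the Grin2a to Grin2b ratio lies lower at 5 d, with a mean of -4.23 at 6 h and -4.78 at 5 d in untreated neurons.

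Grin2a and Grin2b varied together between libraries of the same group, a relation looked at after these values were seen. As log2 deviations from the group mean over 32 libraries, Pearson's r was 0.886 (p = 3e-05, adjusted p = 6e-05) and Spearman's rho was 0.835 (p = 7e-05, adjusted p = 0.00014), by 100000 permutations within groups and adjusted over 4 relations. Without the 2 libraries farthest in Grin2a, r was 0.806. The permutations do not take shared batches into account, and Grin2b had a higher r with Nav1 (0.989) and Cacna1c (0.977). The lowest points were replicate 1 of miR-124-5p at 5 d, with Grin2b at 688 CPM against 1532, 1554 and 1688 in the other libraries, and replicate 3 of untreated at 5 d. Both genes have much exon sequence, 17933 and 24842 bases.

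The median deviation of 1431 other genes with at least 10 kb of exon sequence ran from -0.268 to 0.121 over the libraries and moved with Grin2b (r = 0.882, rho = 0.905, each with a permutation p of 1e-05, the smallest these permutations can give, and an adjusted p of 4e-05, and r = 0.834 without the 2 farthest libraries). It also moved with Grin2a (r = 0.752, p = 0.00243, adjusted p = 0.00324, rho = 0.716, p = 0.0009, adjusted p = 0.0012, and r = 0.643 without 2 libraries) and inversely with the ratio of Grin2a to Grin2b (r = -0.442, p = 0.00649, rho = -0.479, p = 0.00842, with the same adjusted values, and r = -0.427 without 2 libraries). Libraries of one batch are not independent of each other, and batches hold too few libraries for a value within each. Between 6 h and 5 d the median log2 change of these long genes in untreated neurons was 0.0827, with quartiles of -0.19 and 0.385, against 0.819 for Grin2b on the same scale. The part of exon length in the values of Grin2a and Grin2b was not tested further.

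**Figure D4:**
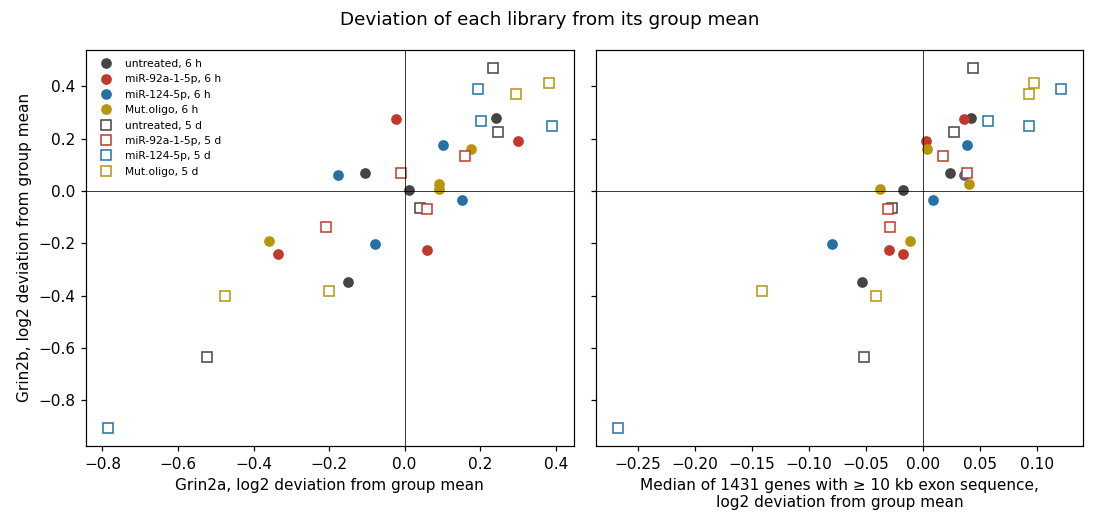
Log2 deviation of Grin2b from its group mean (vertical axes) against that of Grin2a (left) and against the median deviation of 1431 other genes with at least 10 kb of exon sequence (right), for 32 libraries; filled circles are 6 h and open squares 5 d. Replicate 1 of miR-124-5p at 5 d lies lowest in both panels, and its long genes are at -0.268.

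After exposure to the oligoribonucleotides for 6 h, 0 of the 10 members were called by the edgeR test, against untreated and, for both microRNA sequences, against Mut.oligo. A count of 0 is a lack of calls at this threshold and does not show that levels were equal. DESeq2 with and without batch also called 0. In edgeR without batch, the share called over all 18755 genes was 0.0% in each of these 5 comparisons. The edgeR count for the members thus equals its background. That share is not given for DESeq2. At an unadjusted p under 0.05 there were 2 members for Mut.oligo against untreated, where 9.49% of all genes were under it, and 0 in each of the other 4 comparisons, where 2.12% to 4.75% were. When batch entered the model, 3 members were under it for miR-92a-1-5p against untreated (13.4% of all genes), 3 for Mut.oligo (8.47%) and 1 for miR-124-5p (5.79%). Against Mut.oligo there were then 3 for miR-124-5p (4.38%) and 0 for miR-92a-1-5p (2.80%). Grin2b, named after its values were seen, was among them in each comparison with untreated. Its log2 fold change with batch was 0.26 for miR-92a-1-5p (edgeR adjusted p = 0.137), 0.29 for Mut.oligo (0.373) and 0.22 for miR-124-5p (0.822). The others against untreated were Grik3, given below, and Grin1, which was lower. Grin1 was at -0.09 for miR-92a-1-5p (edgeR adjusted p = 0.272), lower in 4 of 4 shared batches, and at -0.13 for Mut.oligo (0.416). Those for miR-124-5p against Mut.oligo were Grin1 (0.18), Grin3a (0.11) and Grik3 (-0.16), each at an edgeR adjusted p of 0.996. The log2 fold changes of the members against untreated were -0.09 to 0.26 for miR-92a-1-5p, -0.09 to 0.28 for miR-124-5p and -0.18 to 0.45 for Mut.oligo. Their standard errors ran from 0.0432 for Grik5 to 0.356 for Grin2c.

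The larger of the 2 values for Mut.oligo at 6 h was that of Grin2b, at 817, 711, 829 and 908 CPM against 730, 472, 630 and 603 CPM in untreated neurons. Untreated library 1 lay within the treated range and the other 3 below it. The log2 fold change was 0.45 ± 0.136 (SE), with an edgeR adjusted p of 0.374, and 0.29 ± 0.0933 (SE) when batch entered the model (adjusted p = 0.373). In the 2 batches that held both groups, the log2 differences were 0.18 and 0.44. The other was Grik1, at 25.6, 28.3, 26.9 and 22.8 CPM against 33.3, 28.9, 29.8 and 26.9 CPM. Its log2 fold change of -0.18 ± 0.0698 (SE) had an adjusted p of 0.462, and the 2 differences within batches were -0.31 and -0.07.

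When batch entered the model, 1 member passed at adjusted p alone against untreated, Grik3 in the libraries labelled miR-92a-1-5p at 6 h. Its values were 191, 180, 142 and 132 CPM against 139, 110, 173 and 123 CPM in untreated neurons, and the groups overlapped. Without the covariate its log2 fold change was 0.24 ± 0.146 (SE), with an adjusted p of 0.999. With it the value was 0.25 ± 0.0446 (SE), under the fold limit, with an adjusted p of 0.0155 in edgeR and 0.000496 in DESeq2. Each of the 4 treated libraries shared a batch with 1 untreated library, and the differences within batches were 0.14, 0.21, 0.26 and 0.37, higher in 4 of 4. In that fit, 0.507% of all genes were higher at an adjusted p under 0.05. The libraries labelled Mut.oligo gave differences of 0.13 and 0.23 in 2 batches. With batch in the model, Grik3 for Mut.oligo against untreated was at 0.22 ± 0.055 (SE; edgeR adjusted p = 0.194). For miR-92a-1-5p against Mut.oligo it was at 0.03 ± 0.0546 (SE; edgeR unadjusted p = 0.629), so the value was not particular to miR-92a-1-5p.

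At 5 d, 0 of the 10 members were called in any comparison, by edgeR or DESeq2. In edgeR, 0 members reached an unadjusted p under 0.05, with or without batch in the model, where 1.68% to 3.63% of all genes did without batch and 2.80% to 10.8% with it. Over all 19333 genes, edgeR without batch called 0.00517% for miR-92a-1-5p against untreated, and 0.0% in the other 4 comparisons. The log2 fold changes against untreated were -0.02 to 0.36 for miR-92a-1-5p, -0.10 to 0.47 for miR-124-5p and -0.34 to 0.13 for Mut.oligo. Against Mut.oligo they were -0.09 to 0.70 for miR-92a-1-5p and -0.02 to 0.81 for miR-124-5p. The values -0.34, 0.36, 0.47, 0.70 and 0.81 among these ends belonged to Grin2c, the member with the fewest counts, named here after its values were seen. The standard errors of the members ran up to 0.39 at this time.

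**Figure D5:**
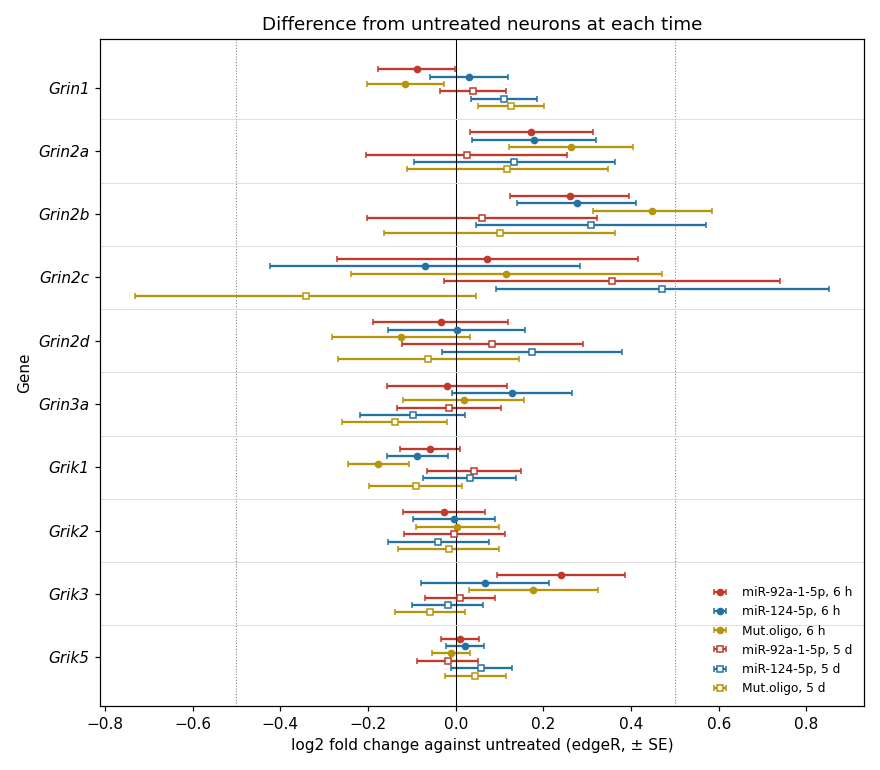
Log2 fold change against untreated neurons (horizontal axis) of each member (vertical axis) for the 3 oligoribonucleotides (colour) at 6 h (filled circles) and 5 d (open squares), from edgeR fits per time point; bars are ± SE and dotted lines mark the fold limit of 0.5 in either direction. The highest value is that of Grin2c for miR-124-5p at 5 d, at 0.47 with an SE of 0.38, and no point lies beyond the dotted lines.

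The difference to untreated at 5 d was tested against that at 6 h. This called 0 members for each oligoribonucleotide, by edgeR and by DESeq2. Of 20425 genes, edgeR without batch called 0.0% for each, and that share is not given for DESeq2. Without batch in the model, Grin1 for Mut.oligo was the only member at an unadjusted p under 0.05 (log2 difference 0.26 ± 0.113 SE, adjusted p = 0.857), beside 5.55% of all genes. With batch it was 1 member for each oligoribonucleotide, beside 10.8%, 3.66% and 4.46% of all genes. The ratio of Grin2a to Grin2b differed from untreated by -0.20 to 0.003 over the 3 oligoribonucleotides and both times, with exact permutation p-values from 0.0857 to 1.0 and adjusted p from 0.514 to 1.0 over 6. Within shared batches these differences ran from -0.37 to 0.15. For the ratio of Grin1 to the GluN2 genes, Mut.oligo at 6 h was lower by 0.53 without overlap (exact permutation p = 0.0286), which did not pass after adjustment (0.171). A single comparison at this p, the smallest the design allows, cannot pass the adjustment over 6. These tests do not take batch into account. In the 2 batches shared with untreated, the differences for Mut.oligo at 6 h were -0.51 and -0.29. For miR-92a-1-5p at 6 h, whose 4 libraries each share a batch with an untreated one, the ratio was lower in 4 of 4 batches, with log2 differences of -0.47 to -0.16 (exact permutation p = 0.143 without regard to batch, adjusted p = 0.429). The ratio of Grik4 and Grik5 to the primary kainate genes was also lower in 4 of 4, with differences of -0.16 to -0.11 (exact permutation p = 0.314, adjusted p = 0.857). The untreated libraries are shared by the comparisons within a time point.

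Of the related subunit genes outside the 10 members, Grid1 and Grin3b passed with time and Grik4 did not in untreated neurons. Grid1 encodes the delta receptor GluD1. In untreated neurons it rose from 53.6 to 98.4 CPM (log2 fold change 0.88 ± 0.0708 SE, adjusted p = 1.52e-11). Grid1 passed in all 4 conditions without overlap. Grik4, the gene of GluK4, was at 14.7 and 18.2 CPM and did not pass (0.30 ± 0.130 SE, adjusted p = 0.0523), and 59 of its exon bases overlap another gene on the same strand. Grin3b fell from 0.275 to 0.101 CPM (adjusted p = 0.03), on 5 to 16 counts at 6 h and 1 to 8 at 5 d.

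Of 49 genes for receptor scaffolds, kinases, auxiliary subunits and co-agonist supply, 12 rose and 2 fell in untreated neurons between 6 h and 5 d, beside 19.1% and 14.3% of all genes, with a median log2 fold change of 0.22 against 0.04 over all genes. In the treated groups, in the order used above, 14, 13 and 19 rose, beside 18.3%, 19.5% and 18.7% of all genes, and 3, 2 and 2 fell, beside 15.7%, 14.7% and 15.4%. The 6 with the smallest p included 2 of the listed genes of the calcium/calmodulin-dependent kinase: Camk2a, at 95.9 ± 5.79 and 299 ± 44.2 CPM (SD, n = 4), and Camk2d, at 51.8 ± 3.66 and 147 ± 16.3 CPM (SD, n = 4). They also included the kinase inhibitor Camk2n1, at 60.2 ± 6.78 and 178 ± 13.8 CPM (SD, n = 4). Their log2 fold changes were 1.64, 1.51 and 1.57.

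The co-agonist genes among them were Srr, the serine racemase that makes D-serine, with a log2 fold change of 1.33, and Slc6a9, the glycine transporter GlyT1, with 2.13. Rasgrf1, a calcium-regulated Ras exchange factor, rose by 1.46. Of the kainate receptor auxiliary subunits, Neto2 rose from 204 ± 12.3 to 358 ± 56.1 CPM (SD, n = 4; log2 fold change 0.81, adjusted p = 5.18e-06), and Neto1 was at 61.7 ± 8.998 and 63.1 ± 4.66 CPM (SD, n = 4; 0.03, adjusted p = 0.836). The scaffold genes Dlg4 (PSD-95) and Dlg3 (SAP102) had values of 0.33 (adjusted p = 3.98e-05) and 0.14 (adjusted p = 0.146), under the fold limit. With treatment Dlg4 was at 0.44, 0.42 and 0.56, the last past the limit (adjusted p = 7.01e-09), and Dlg3 at 0.17, 0.17 and 0.25. Rest, a repressor of neuronal genes, was at 13.03 and 12.4 CPM (-0.07, adjusted p = 0.527), and its log2 fold change was -0.16 (adjusted p = 0.137), -0.28 (adjusted p = 0.00967) and -0.31 (adjusted p = 0.00478) in the treated groups, under the fold limit. Against untreated or Mut.oligo within a time point, 0 of the 49 genes were called. The part of the astrocyte and dividing cell markers, which moved with the same time comparison, was not tested.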

How the data were processed

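RNA was sequenced from 32 libraries of cultured cortical neurons. The authors aligned the reads to GRCm38 with STAR, counted them per gene and strand with featureCounts, and deposited raw counts without normalization. Deposited columns were matched to samples by label. CPM and counts per kilobase were computed from them with TMM factors and GENCODE M21 exon lengths, and 49412 of 49671 identifiers had a symbol. Depth was 24514090 to 73626029 counts per library, and the floor of 3 counts covers counting error only. The 48 pairs of replicates all differed by more than sampling noise.

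A gene was tested if 3 or more libraries held 5 or more counts of it, with edgeR 4.0.16 (quasi-likelihood, TMM, no covariate) and Benjamini-Hochberg adjustment over all genes, at an adjusted p under 0.05 and an absolute log2 fold change above 0.5. Treatments were compared within a time point (16 libraries), and times in one fit of all 32. Standard errors are the log2 fold change over the square root of F. Ratios were compared with exact permutation tests (scipy 1.17.1). Alternatives were the experiment batch, the replicate block, DESeq2 1.42.0, RLE normalization, other filters, 2 groups only and each library left out. In simulated data with 200 changed genes and no batch structure, edgeR recovered 87% of those changed by 1 log2 unit for untreated 5 d against 6 h. All members but Grin1 had estimates under 1 log2 unit there, so this share does not describe how well their changes are found.

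The members and lists were chosen with earlier results of these data known. Fold changes against controls are printed for members with an unadjusted p under 0.05 or past the test with batch. Of the partner list, the 6 with the smallest p and 6 chosen by name are printed. A related gene is not reported here. The labels call the replicates biological; p-values measure the spread between these libraries.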

Additional observations from a re-analysis of the deposited data

Results flagged for a closer look

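Of 104 groups of 4 libraries checked over the members and the 3 ratios, 2 held a library far from the other 3. Chance alone marks about 1 in 20 such groups. In the libraries labelled miR-124-5p at 5 d, Grin2b was at 687.7 CPM in replicate 1. In the libraries labelled miR-92a-1-5p at 6 h, Grin3a was at 44.16 CPM in replicate 4, against 64.1 to 68.0 in the other libraries. Without the first of these libraries, the change of Grin2b between 6 h and 5 d was 1.12 in place of 0.90 on the log2 scale. The cause was not tested.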

How the results depend on the processing

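The counts of called members were within 1.5 times of the reported count in 296 of 299 recomputations. Most of these were comparisons within a time point, or of the treatment difference at 5 d against that at 6 h. No member was called there in any setting, so an unchanged count says little about stability. The 3 counts that moved further all belonged to comparisons of 5 d with 6 h. The ratio differences kept their side of the threshold or moved by less than the SD between libraries in 300 of 300 recomputations. In most of these a single library was left out, and the exact test then cannot reach an adjusted p under 0.05. Differences that had passed were counted as kept there by their size alone, so this count says little about stability. Gene lengths cancel in the Grin2a to Grin2b difference, so the longest transcript could not change it. No called value changed sign. Without a minimum fold change, 7 members in place of 4 passed between 6 h and 5 d in untreated neurons and 7 in the libraries labelled miR-92a-1-5p, because Grin3a, Grik2 and Grik5 then counted. Leaving out single libraries gave 3 to 5 called members for untreated, 3 to 4 for miR-92a-1-5p, 4 for miR-124-5p and 2 to 4 for Mut.oligo, the 2 being without replicate 1 of 5 d.

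The replicate numbers of the labels did not pair the libraries at 6 h, where same-numbered libraries had a median correlation of -0.149 and others 0.032. At 5 d these medians were 0.259 and -0.132. Libraries of different groups from the same batch had a median of 0.691 at 6 h and 0.456 at 5 d. For libraries of different batches it was -0.169 and -0.178. The main tests do not take this likeness within batches into account. With the replicate block, 3 members passed for untreated and 3 for Mut.oligo between 6 h and 5 d, the lost ones being Grin2d (log2 fold change 0.48) and Grin2b (0.53, adjusted p = 0.0515), and 0 in each comparison within a time point. Depth limits Grin2c most, with as few as 12 counts in a library.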

Other observations

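As a description of likeness, each member was set against 13652 genes with a mean of at least 1 CPM, by Pearson's r of log2 deviations from the 8 group means over 32 libraries. Libraries share batches, and depth and RNA handling are common to all genes of a library. The gene most like Grin2b was Nav1 (r = 0.989), followed by Cacna1c (r = 0.977) and Fat4 (r = 0.971), with 17.3, 21.2 and 17.2 kb of exon sequence. The genes most like Grin2a were Celsr2 (r = 0.901), Cpd (r = 0.891) and Nav2 (r = 0.889). For Grik2 they were Cntn5 (r = 0.952), Ptprt (r = 0.948) and Rbfox2 (r = 0.946).

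Grin1 was most like Adamts8 (r = 0.888), Pcsk2 (r = 0.823) and Synpo (r = 0.807). Grin2c was most like Ntsr2 (r = 0.86), Kcne1l (r = 0.855) and S100b (r = 0.854), and Grin2d most like Arhgef25 (r = 0.91), Npas1 (r = 0.88) and Cib2 (r = 0.872). Grik1 was most like Copb1 (r = 0.826), Grik3 most like Ablim3 (r = 0.885) and Grik5 most like Fam20c (r = 0.88).

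Between the members themselves, the highest r was that of Grin2a with Grin2b (0.886), then Grin3a with Grik3 (0.711) and Grin2b with Grik2 (0.667). The lowest was that of Grin1 with Grik3 (-0.733), followed by Grin2c with Grik2 (-0.614) and Grin1 with Grik1 (-0.554).

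Other cell type lists in untreated neurons between 6 h and 5 d showed 4 of 6 excitatory markers lower and 1 higher, the higher one being Slc17a7, the vesicular glutamate transporter, from 34.1 to 117 CPM. Of 8 inhibitory markers, 4 were lower and 0 higher. Of 8 microglial markers 2 were higher, of 8 oligodendrocyte lineage markers 3 were lower, and of 8 endothelial and mural markers 3 were higher and 1 lower. Neuronal markers had 1 of 6 higher and 1 lower.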
